A study of Mus musculus with 12 samples.

Results

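The mitochondrial ribosomal proteins are the nuclear-encoded proteins of the ribosome that works inside mitochondria, and their RNA was followed here in activated mouse B cells. Members were all genes whose symbol begins with Mrpl or Mrps and a digit in the array's annotation, each read by the probe set that matched this symbol alone and had the highest mean over the arrays. The rule found 76 members among 18193 genes with a probe set of their own. Of these 47 carry Mrpl names and 29 carry Mrps names. Mrpl30 and Mrpl53 appeared only on probe sets shared with another gene and were not measured.

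The study used 12 Affymetrix mouse arrays, 2 for each of 6 groups. B cells were taken with B220 magnetic beads from the spleens of C57BL/6 mice that carry Tg(IghelMD4)4Ccg. This MD4 transgene gives B cells an antigen receptor for hen egg lysozyme (HEL), so the cells share a specificity. All groups were cultured with anti-CD40, IL21 and HEL, signals that can drive B cells towards plasma cells, and were collected at day 1 or day 3. Each day has arrays labelled control (sicontrol), Jmjd2a (siJmjd2a) and Jmjd2c (siJmjd2c). Other labels name virus carrying shRNA in place of siRNA, so the kind of agent is not settled. Jmjd2a and Jmjd2c are the histone demethylases Kdm4a and Kdm4c, which act on methylated lysine 9 of histone H3. A day 0 collection named in the design was not analysed here.

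The titles call the arrays of a group biological replicates but name no separate animals or cultures, so p-values measure only the spread between these arrays, which may be technical. Kdm4a differed from control by 0.11 at day 1 and by -0.12 at day 3 on the log2 scale in the arrays labelled Jmjd2a (adjusted p = 0.62 and 0.36, limma), and Kdm4c by 0.19 and 0.03 in those labelled Jmjd2c (adjusted p = 0.41 and 0.91, limma). Neither target passed, and the groups are therefore called by their labels throughout. Of 8 defining B cell genes 7 were measured, and their mean lay between 10.32 and 11.29 on every array. The second day 3 control array stood apart, with an interquartile range over all probe sets of 3.08 against 3.38 to 3.63 on the others and a lower 18S ribosomal RNA signal (10.73 against 11.73 to 12.73). The second day 1 array of each label also stood apart, in neutrophil genes: S100a8 read 10.42 (Jmjd2a) and 11.24 (Jmjd2c) there, 6.61 and 6.35 on the first arrays and 4.61 to 4.63 in the day 1 controls. For the family as a whole, counts of members past the test that rest on these arrays are also given without them.

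Mitochondria keep a small genome that encodes subunits of the respiratory chain, and the mitochondrial ribosome translates them. Its proteins are encoded in the nucleus, made in the cytosol and imported. Many descend from proteins of the bacterial ribosome, and others were added during the evolution of mitochondria. Activated B cells enlarge their mitochondria and their respiratory chain before they divide and secrete antibody.

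By place in the ribosome, 49 members belong to the large subunit and 26 to the small subunit. The names do not always match the place: Mrps30 and Mrps18a sit in the large subunit. Mrps36 is known as a part of the oxoglutarate dehydrogenase complex and not of the ribosome. A bacterial counterpart is known for 45 members, 29 are counted as mitochondrial additions, Mrps36 among them, and Mrps18a and Mrps18b are additional relatives of bacterial S18.

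Values are the deposited log2 values, on which a difference of 1 is a doubling of the signal. Member means over the 12 arrays lay between 7.85 and 11.86, and all 76 lay above 5.22, the median over all probe sets. The probe sets of different genes bind with different strength, so levels of different members are not ranked. Replicates lay close together: the median SD of a member was 0.02 to 0.07 in the 6 groups (n = 2 each). The largest SD was 0.27, for Mrps27 in the day 3 controls.

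The start regions of these genes are shown first, because members with and without a short element in them differed in their median change in the controls. RefSeq promoters of GRCm38.p6, 250 bases before to 50 bases after the start, were found for 67 members. Both strands were searched for 4 elements that are common at genes for mitochondrial proteins. These are the NRF1 element (GCGCA, any base, then GCGC), the ETS (GABP) element CCGGAAG, the E-box CACGTG and the YY1 element (AAGATGG followed directly by CGGC). No element is part of another, though neighbouring matches can share bases. The NRF1 element was in a promoter of 12 of 67 members (17.9%) and of 5.19% of all 27025 genes in the table. The ETS element was in 25 members (37.3%) against 9.93% of all genes, and the YY1 element in 5 (7.46%) against 0.755%. The E-box was in 5 members (7.46%) against 8.09% of all genes. Counted over all 32851 promoters the shares were 4.6%, 8.86%, 0.633% and 7.15%. A match describes the letters and is no measured binding site.

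The 120 bases before the start of 6 members are given 5′ to 3′ on the strand of the gene, with the NRF1 or ETS element in capitals. Mrpl45, Mrpl9 and Mrps21 hold the NRF1 element and did not fall in the controls. Mrpl12 and Mrpl17 hold it and fell. Mrpl52 holds an ETS element and fell. In Mrps21, Mrpl12 and Mrpl52 the element is read on the opposite strand, so the capitals show its reverse complement. They lie at chr11:97315596-97315715 (Mrpl45, plus strand), chr3:94443216-94443335 (Mrpl9, plus), chr3:95871515-95871634 (Mrps21, minus), chr11:120484517-120484636 (Mrpl12, plus), chr7:105811088-105811207 (Mrpl17, minus) and chr14:54426789-54426908 (Mrpl52, plus).
Mrpl45: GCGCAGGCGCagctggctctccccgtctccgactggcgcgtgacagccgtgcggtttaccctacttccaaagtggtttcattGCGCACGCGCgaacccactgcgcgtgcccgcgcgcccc
Mrpl9: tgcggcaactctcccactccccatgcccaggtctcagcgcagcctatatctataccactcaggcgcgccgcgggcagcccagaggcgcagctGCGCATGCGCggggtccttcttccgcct
Mrps21: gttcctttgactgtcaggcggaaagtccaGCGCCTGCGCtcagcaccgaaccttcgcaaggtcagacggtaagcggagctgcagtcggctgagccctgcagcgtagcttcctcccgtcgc
Mrpl12: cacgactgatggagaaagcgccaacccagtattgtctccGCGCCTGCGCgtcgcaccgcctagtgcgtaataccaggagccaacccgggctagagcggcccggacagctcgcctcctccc
Mrpl17: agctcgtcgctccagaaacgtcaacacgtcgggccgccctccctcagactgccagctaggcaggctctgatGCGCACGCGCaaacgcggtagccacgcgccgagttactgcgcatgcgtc
Mrpl52: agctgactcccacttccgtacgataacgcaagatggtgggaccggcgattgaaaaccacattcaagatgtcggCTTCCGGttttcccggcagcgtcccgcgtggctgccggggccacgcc

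The first question was how the members moved between day 1 and day 3 in the control cells. Most members fell: the median of the 76 members on an array was 10.26 and 10.27 at day 1 and 9.96 and 9.93 at day 3. Of the 76, 55 fell, 20 did not pass the test and 1, Mrpl45, rose (limma, Benjamini-Hochberg adjusted p under 0.05). The median difference was -0.33, or 0.796 of the day 1 signal, and single members ran from -1.01 to 0.34. Among all probe sets 15.4% were lower and 8.46% higher, with a median difference of 0.04. Among the 8470 probe sets whose mean lay within the members' range, 39.4% were lower and the median difference was -0.18. Fewer cells of a type and less RNA per cell cannot be told apart in such bulk samples.

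**Figure D1:**
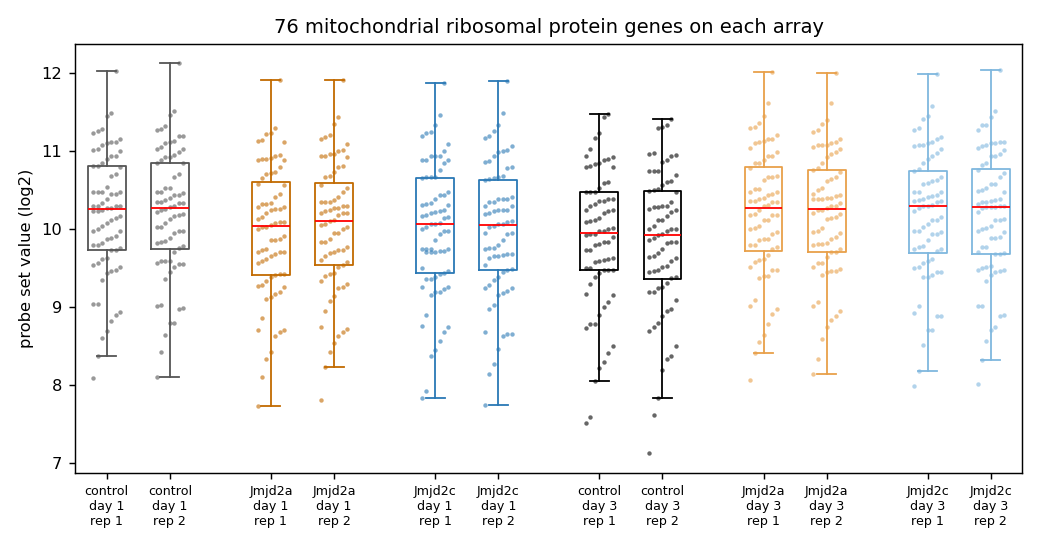
Distribution of the log2 signal of the 76 members on each of the 12 arrays, grouped by label and day; points are members, boxes span the quartiles, red lines mark medians and whiskers reach the farthest members that are not outlying. The day 3 control arrays have the lowest medians (9.96 and 9.93), the day 1 arrays of both labels lie between, and the other groups lie at 10.26 to 10.3.

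The fall was large in Mrpl38, a mitochondrial addition in the central protuberance of the large subunit. Its signal was 8.6 and 8.64 in the day 1 controls, 7.59 and 7.62 in the day 3 controls, 8.33 and 8.43 with the Jmjd2a label at day 1, 8.37 and 8.27 with the Jmjd2c label at day 1, 8.55 and 8.59 with Jmjd2a at day 3 and 8.52 and 8.57 with Jmjd2c at day 3. Both day 3 controls lay below every other array. The fall was -1.01 on the log2 scale (SE 0.08, 95% interval -1.19 to -0.83), 2.01-fold lower, with an adjusted p of 4.4e-06 (limma).

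Mrps28, the small subunit protein related to bacterial S1, read 10.81 and 10.88 in the day 1 controls and 9.81 and 9.89 in the day 3 controls. Its day 1 arrays gave 10.45 and 10.52 with Jmjd2a and 10.43 and 10.39 with Jmjd2c, and its day 3 arrays 10.68 and 10.73 with Jmjd2a and 10.66 and 10.75 with Jmjd2c. The 6 groups form 3 tiers, with the day 3 controls lowest, the day 1 label arrays between and the other groups on top. The fall in the controls was 1.99-fold (log2 difference -1.0, SE 0.06, adjusted p = 4.9e-07, limma).

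Mrpl52, a mitochondrial addition of the large subunit, read 12.02 and 12.12 in the day 1 controls, 11.23 and 11.33 in the day 3 controls, and between 11.87 and 12.04 on the 8 other arrays. Mrps27, a small subunit protein with pentatricopeptide repeats, an RNA-binding fold, read 8.09 and 8.11 at day 1 and 7.52 and 7.13 at day 3 in the controls. The replicates of Mrps27 at day 3 were further apart than those of any other member in any group, but both lay below the day 1 pair. Mrpl52 fell 1.74-fold (adjusted p = 4.6e-07) and Mrps27 1.71-fold (adjusted p = 0.00045, limma). Mrpl50, another addition of the large subunit, went from 9.61 and 9.59 to 9.06 and 8.74, 1.62-fold lower (95% interval of the log2 difference -0.9 to -0.5, adjusted p = 0.00016, limma).

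The small-subunit relatives of bacterial proteins among the named members included Mrps24 (S3), at -0.62 (adjusted p = 1e-05), and Mrps6 (S6), at -0.58 (adjusted p = 0.00043, limma). Mrps31, an addition of the small subunit, changed by -0.59 (adjusted p = 0.00025, limma), and Mrpl55, in the large subunit, by -0.58 (adjusted p = 0.00019, limma). In each of these 4 genes the day 3 pair lay below the day 1 pair. Smaller falls passed in Mrpl1, the L1 stalk protein, at -0.46 (adjusted p = 0.0087), in Mrpl12, the stalk protein that recruits translation factors, at -0.4 (adjusted p = 0.00058), and in Mrps25 at -0.37 (adjusted p = 0.0051, limma). The call for Mrpl1 was lost without the second day 1 control array (-0.43) and that for Mrps25 without the first (-0.34).

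Both subunits took part. In the large subunit 37 of 49 members fell, with a median difference of -0.32, and in the small subunit 18 of 26, with -0.38. Among the members with a bacterial counterpart 33 of 45 fell and among the mitochondrial additions 20 of 29, both with a median of -0.32. The difference between these classes was not tested.

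**Figure D2:**
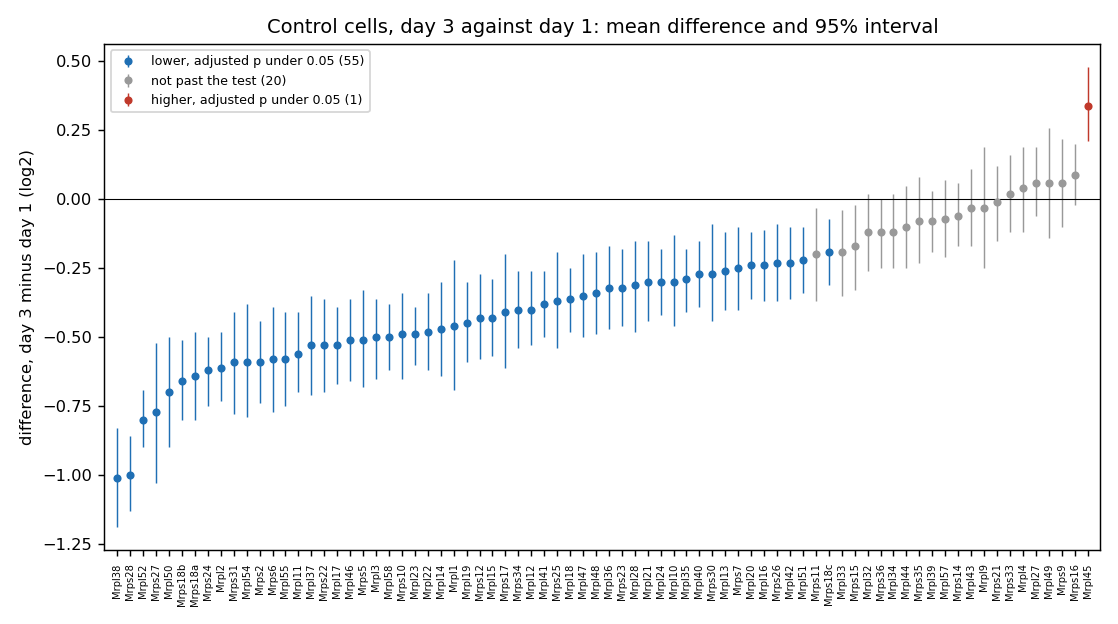
Difference in log2 signal between day 3 and day 1 in the control arrays for each of the 76 members, ordered by size, with 95% intervals of the moderated model. The plot runs from Mrpl38 at -1.01 to Mrpl45 at 0.34, the only member past the test on the upper side.

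The 3 relatives of bacterial S18 are placed differently in the ribosome: Mrps18c is the direct counterpart, Mrps18b lies elsewhere in the small subunit and Mrps18a lies in the large subunit. Mrps18a read 10.0 and 9.97 in the day 1 controls and 9.44 and 9.26 in the day 3 controls. Mrps18b read 10.14 and 10.19, then 9.48 and 9.53. Mrps18c read 11.11 and 11.12, then 10.9 and 10.95. All 3 pairs separated by day. The fall was -0.64 for Mrps18a (95% interval -0.8 to -0.48, adjusted p = 6e-05), -0.66 for Mrps18b (-0.8 to -0.51, adjusted p = 2.2e-05) and -0.19 for Mrps18c (-0.31 to -0.07, adjusted p = 0.023, limma). The interval of Mrps18c did not reach those of the other 2, though the difference between them was not tested, and its call was lost without either day 1 control array (-0.2 and -0.18).

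Mrps30, named for the small subunit but placed in the large, read 9.54 and 9.57 at day 1 and 9.39 and 9.19 at day 3. Its change of -0.27 (95% interval -0.44 to -0.09, adjusted p = 0.03, limma) passed, but no longer did so without any 1 of 7 arrays, both day 1 controls and the second day 3 control among them (-0.28 to -0.17). Mrps36, the member outside the ribosome, read 10.23 and 10.22, then 10.09 and 10.12, and its change of -0.12 did not pass (adjusted p = 0.15, limma).

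Mrpl45 went the other way. This mitochondrial addition of the large subunit lies at the exit of the peptide tunnel, where it holds the ribosome at the inner membrane. It read 10.24 and 10.28 in the day 1 controls, 10.03 and 10.11 with Jmjd2a at day 1, 10.06 and 9.95 with Jmjd2c at day 1, 10.6 and 10.61 in the day 3 controls, 10.39 and 10.33 with Jmjd2a at day 3 and 10.3 and 10.29 with Jmjd2c at day 3. The day 3 controls were the highest pair and the day 1 label arrays the lowest. The rise in the controls was 0.34 (SE 0.06, 95% interval 0.21 to 0.48, 1.27-fold, adjusted p = 0.0015, limma). Mrpl45 has 1 probe set, so no second reading was at hand.

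The 20 members that did not pass include Mrps9, Mrps14 and Mrps16, relatives of bacterial S9, S14 and S16, and Mrpl27, the relative of L27. Mrps9 changed by 0.06 (95% interval -0.1 to 0.22, adjusted p = 0.62, limma) and Mrps16 by 0.09 (-0.02 to 0.2, adjusted p = 0.21). These intervals leave out a fall of the size of the family's median. Mrps14 changed by -0.06 (adjusted p = 0.47) and Mrpl27 by 0.06 (adjusted p = 0.48, limma). Less bright probe sets of 2 of these genes disagreed: 1 of Mrps9 (mean 6.63) changed by -0.39 (adjusted p = 0.027) and 1 of Mrps14 (mean 4.81, below the array median) by -1.31 (adjusted p = 0.0002, limma).

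The day 3 control group had the lowest mean of the 6 groups in 55 members. In 44 members both of its arrays lay below all 10 others, and in 2 both lay above. The highest mean was that of the day 1 controls in 32 members, of the Jmjd2a label at day 3 in 25 and of the Jmjd2c label at day 3 in 11. These orders of groups and arrays were counted over the members alone, so no share of all probe sets stands beside them. Without the second day 3 control array 55 members were lower and 3 higher. Under quantile normalization the median difference was -0.24 and 44 members were lower, and with arrays centred on their medians it was -0.36 and 57 were lower. The direction of the family was the same under these scalings in both comparisons with control on both days.

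**Figure D3:**
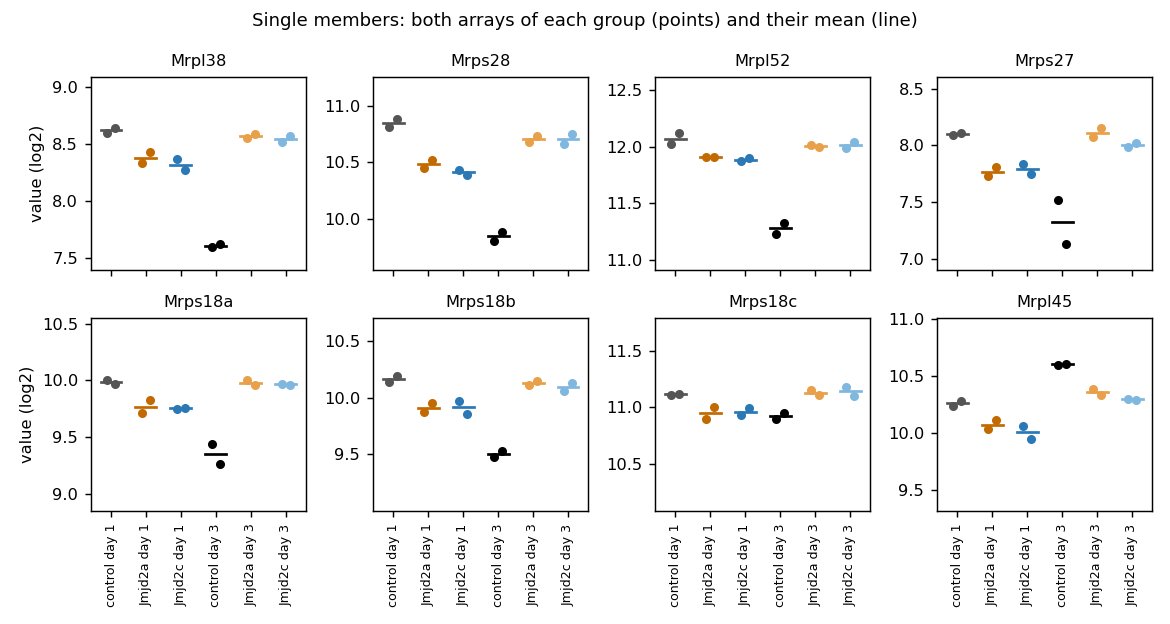
Log2 signal of 8 members on the 12 arrays, 1 point per array, with a line at the mean of each group of 2; the axes span different ranges of signal. In 6 panels the day 3 control pair lies below all other arrays, in Mrps18c it overlaps the day 1 label arrays, and in Mrpl45 it is highest, at 10.6 and 10.61.

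At day 3 most members were higher with either label than in the controls of that day. With the Jmjd2a label 56 members were higher and 1 was lower, with a median difference of 0.32 (1.25-fold), where 13.7% of all probe sets were higher and 7.11% lower. With the Jmjd2c label 52 were higher and 1 lower, with a median of 0.29 (1.23-fold), where 9.28% of all probe sets were higher and 5.04% lower. In probe sets of the members' range 36.1% and 28.3% were higher, with medians of 0.17 and 0.11. Both comparisons use the day 3 controls, and so does the change in the controls over time, so the 3 sets of values are not independent. All 52 members higher with Jmjd2c were also among the 56 higher with Jmjd2a. The 4 others were Mrpl1, Mrpl33, Mrps11 and Mrps14.

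The largest differences lay in the members that had fallen most in the controls they share. Mrpl38 was 0.96 higher with Jmjd2a (95% interval 0.78 to 1.14, 1.95-fold, adjusted p = 1.2e-05) and 0.94 higher with Jmjd2c (1.92-fold, adjusted p = 1.8e-05, limma). Mrps28 was 1.8-fold higher with each label (adjusted p = 4e-06 and 4.9e-06). Mrps27 was 1.73-fold higher with Jmjd2a and 1.61-fold with Jmjd2c (adjusted p = 0.00056 and 0.0018). As given above, both arrays of each label lay above both day 3 controls in Mrpl38 and Mrps28.

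For Mrps27 the day 3 arrays gave 8.07 and 8.15 with Jmjd2a and 7.99 and 8.02 with Jmjd2c, again above both controls of that day. Mrpl52 was 1.66-fold and 1.67-fold higher (adjusted p = 2.4e-06 and 3.1e-06, limma). Mrps24 read 10.39 and 10.25 in the day 3 controls, 10.94 and 10.98 with Jmjd2a and 10.97 and 10.93 with Jmjd2c. Its differences were 1.55-fold and 1.54-fold (adjusted p = 1.7e-05 and 2.2e-05, limma).

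The S18 relatives were higher too. Mrps18a differed by 0.63 with Jmjd2a and 0.61 with Jmjd2c (adjusted p = 0.00011 and 0.00015), Mrps18b by 0.62 and 0.58 (adjusted p = 5.7e-05 and 0.0001) and Mrps18c by 0.2 and 0.21 (adjusted p = 0.019 for both, limma). The 2 calls for Mrps18c were lost without either array of the label in question (0.18 to 0.25). Mrpl12, the stalk protein, was 0.41 and 0.42 higher (adjusted p = 0.00065 for both). Mrps25 was 0.33 and 0.27 higher (adjusted p = 0.011 and 0.042), and its second call was lost without any 1 of 9 arrays (0.2 to 0.27) and its first without either Jmjd2a array of day 3 (0.31 to 0.36).

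Mrpl45 was the member on the lower side with both labels. It was 1.18-fold lower with Jmjd2a (log2 difference -0.24, 95% interval -0.37 to -0.11, adjusted p = 0.015) and 1.24-fold lower with Jmjd2c (-0.31, -0.44 to -0.18, adjusted p = 0.0044, limma). The first call was lost without either Jmjd2a array of day 3 (-0.27 to -0.21) and the second without the second Jmjd2c array of day 3 (-0.3). Mrps9 differed by -0.14 and -0.18 (adjusted p = 0.21 and 0.14), Mrps30 by 0.18 and 0.19 (adjusted p = 0.14 and 0.15) and Mrps36 by 0.12 and 0.17 (adjusted p = 0.18 and 0.07, limma). Mrps14 passed with Jmjd2a at 0.18 (adjusted p = 0.033) and did not with Jmjd2c at 0.11 (adjusted p = 0.23). Mrpl1 passed at 0.43 (adjusted p = 0.015) and did not at 0.3 (adjusted p = 0.09, limma). The call for Mrps14 was lost without any 1 of 5 arrays (0.15 to 0.18) and that for Mrpl1 without any 1 of 3 (0.32 to 0.47), the second day 3 control among them in both. Between the labels themselves neither gene passed.

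By subunit, 37 of 49 large-subunit members were higher with Jmjd2a and 35 with Jmjd2c, with medians of 0.32 and 0.3. In the small subunit 19 of 26 and 17 of 26 were higher, with medians of 0.34 and 0.29. Without the second day 3 control array, the one that stood apart, 54 members were higher and 1 lower with Jmjd2a, and 50 were higher and 2 lower with Jmjd2c. Fitted on the arrays of the compared groups alone, 30 and 23 members were higher. Without an array of the Jmjd2c label at day 3, 35 members were higher with that label.

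At day 1 the direction was the opposite and the differences were smaller. With the Jmjd2a label 19 members were lower than in the day 1 controls and 0 were higher (limma), with a median of -0.19 (0.877 of control) and a range of -0.36 to 0.03, and 3.25% of all probe sets were lower and 4.23% higher. With the Jmjd2c label 34 were lower and 0 higher, with a median of -0.22 (0.857 of control) and a range of -0.44 to 0.09, and 5.69% of all probe sets were lower and 5.32% higher. At an unadjusted p under 0.05 the counts were 55 and 58 members, given here without a background share at that threshold. At the adjusted threshold 12.1% and 19.2% of the probe sets of the members' range were lower, with medians of -0.07 and -0.09. Both labels share the day 1 controls. The calls held 17 members in common, all but 2 of the 19 and 17 of the 34. The 2 passing with Jmjd2a alone were Mrpl15 and Mrpl55.

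These counts changed with single arrays. The Jmjd2a count was 1 and 0 without the first or second day 1 control, 2 and 14 without the first or second Jmjd2a array of day 1, 8 without either Jmjd2a array of day 3, 7 without either Jmjd2c array of day 3 and 47 without either day 3 control. The Jmjd2c count was 4 and 2 without the first or second day 1 control, 18 and 6 without the first or second Jmjd2c array of day 1, 22 without either Jmjd2a array of day 3, 21 without either Jmjd2c array of day 3 and 55 without either day 3 control. The median difference moved less, between -0.23 and -0.17 for Jmjd2a and between -0.24 and -0.2 for Jmjd2c. Quantile normalization gave medians of -0.19 for both.

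Mrps28 had the largest difference with both labels. It was 22.1% lower with Jmjd2a (log2 difference -0.36, 95% interval -0.49 to -0.23, adjusted p = 0.0035) and 26.2% lower with Jmjd2c (-0.44, -0.57 to -0.31, adjusted p = 0.00072, limma). The 4 label arrays lay below both controls. The first call was lost without the second day 1 control (-0.33), and the second passed without any single array.

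Mrps25, a mitochondrial addition of the small subunit, read 9.63 and 9.59 in the day 1 controls, 9.17 and 9.34 with Jmjd2a and 9.23 and 9.18 with Jmjd2c. Mrps6 read 9.48 and 9.55, then 9.26 and 9.08 with Jmjd2a and 9.19 and 9.03 with Jmjd2c. Neither gene's label arrays reached the controls. Mrps25 was 21.7% and 24.2% lower (adjusted p = 0.018 and 0.0068) and Mrps6 21.5% and 24.6% lower (adjusted p = 0.031 and 0.01, limma). Mrps9 read 9.8 and 9.85 in the controls, 9.42 and 9.6 with Jmjd2a and 9.46 and 9.49 with Jmjd2c, and was 19.7% and 21.6% lower (adjusted p = 0.021 and 0.0091, limma). Mrps9 is thus among the members lower at day 1 that did not fall in the controls. Without either day 1 control array none of these 6 calls passed, and the differences then lay between -0.38 and -0.23 for Jmjd2a and between -0.44 and -0.33 for Jmjd2c, other arrays whose absence ended a call included.

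Some calls of day 1 passed with 1 label. Mrpl55 read 9.44 and 9.45 in the controls, 9.1 and 9.14 with Jmjd2a and 9.16 and 9.21 with Jmjd2c. Its difference was -0.32 with Jmjd2a (19.9% lower, adjusted p = 0.028) and -0.26 with Jmjd2c (adjusted p = 0.057, limma). Mrpl50 read 9.27 and 9.26 with Jmjd2a and 9.2 and 9.15 with Jmjd2c, below its controls, and gave -0.33 (adjusted p = 0.051) and -0.42 (25.4% lower, adjusted p = 0.012, limma). Mrpl45, the member that rose in the controls, was lower here too, by -0.19 (adjusted p = 0.085) and -0.26 (adjusted p = 0.018, limma). Between the labels themselves no member passed, and the calls for Mrpl55, Mrpl50 and Mrpl45 too were lost without either day 1 control (-0.34 to -0.3 for Mrpl55, -0.43 to -0.39 for Mrpl50, -0.28 to -0.2 for Mrpl45, over all arrays whose absence ended the call).

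Mrps31 passed with both labels. It read 9.04 and 8.98 in the controls, 8.68 and 8.75 with Jmjd2a and 8.56 and 8.65 with Jmjd2c, and was 18.8% lower with Jmjd2a (adjusted p just under the threshold, 0.05 when rounded) and 24.7% lower with Jmjd2c (adjusted p = 0.0079, limma). The first call was lost without any 1 of 10 arrays (-0.34 to -0.27), and the second without either day 1 control or the first Jmjd2c array of day 1 (-0.44 to -0.37).

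Mrps36, outside the ribosome, read 10.0 and 10.02 with Jmjd2a and 10.0 and 9.95 with Jmjd2c at day 1, below both controls, and differed by -0.22 and -0.25 (adjusted p = 0.04 and 0.015, limma). Mrps18b differed by -0.25 with each label (adjusted p = 0.038 and 0.028), Mrps18a by -0.22 and -0.23 (adjusted p = 0.11 and 0.07) and Mrps18c by -0.17 and -0.15 (adjusted p = 0.093 and 0.097, limma). The calls for Mrps36 and Mrps18b were lost without either day 1 control (-0.25 to -0.2 and -0.29 to -0.2 over all arrays that ended a call). Mrps24, which fell strongly in the controls, differed by -0.03 and 0.02 (adjusted p = 0.85 and 0.94). By subunit, 8 of 49 large and 10 of 26 small subunit members were lower with Jmjd2a (medians -0.19 and -0.25), and 20 of 49 and 13 of 26 with Jmjd2c (medians -0.21 and -0.26).

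Of the 55 members that fell in the controls, 31 were lower at day 1 with at least 1 label. Mrpl44, Mrpl45, Mrps11, Mrps36 and Mrps9 were lower at day 1 and did not fall in the controls, and 16 members did neither. The day 1 controls stand in both comparisons.

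Within each label the median difference of the members from day 1 to day 3 was above 0, where that of the controls was below 0, but most members did not pass. With Jmjd2a 8 rose and 0 fell, with a median of 0.19 (1.14-fold), where 2.26% of all probe sets were higher and 3.35% lower, and 60 members had an unadjusted p under 0.05 (limma). The 8 were Mrpl27, Mrpl40, Mrpl45, Mrpl55, Mrps11, Mrps14, Mrps23 and Mrps25, at 0.23 to 0.32. With Jmjd2c 22 rose and 0 fell, with a median of 0.2 (1.15-fold), where 3.27% of all probe sets were higher and 5.36% lower. In this comparison 54 members had an unadjusted p under 0.05 (limma). The counts at an unadjusted p are given without a background share at that threshold. Mrps28 rose by 0.29 (adjusted p = 0.01) and Mrpl45 by 0.29 (adjusted p = 0.012, limma) with Jmjd2c. The Jmjd2a count was 0 without the first Jmjd2a array of day 1 or either of day 3, 3 without a day 1 control or a Jmjd2c array of day 3 and 43 without a day 3 control. The Jmjd2c count was 6 and 2 without the first or second Jmjd2c array of day 1, 1 and 0 without the first or second of day 3, 10 without a day 1 control or a Jmjd2a array of day 3 and 49 without a day 3 control.

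The difference from control was tested for a change between the days. It was more positive at day 3 than at day 1 in 60 members with Jmjd2a (median 0.52), where this held for 12% of all probe sets and the opposite for 6.36%, and in 58 with Jmjd2c (median 0.5), where it held for 10.7% and the opposite for 6.84%. No member passed in the other direction, at an adjusted p under 0.05 in limma. The change was largest in Mrps28, at 1.21 and 1.29, and in Mrpl38, at 1.2 and 1.23. In Mrpl45 it was -0.05 with each label (95% interval -0.24 to 0.14, adjusted p = 0.78, limma): its differences from control, -0.19 and -0.26 at day 1 and -0.24 and -0.31 at day 3, all lay below 0. Mrps9 gave 0.18 and 0.17 (adjusted p = 0.29 and 0.33, limma).

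**Figure D4:**
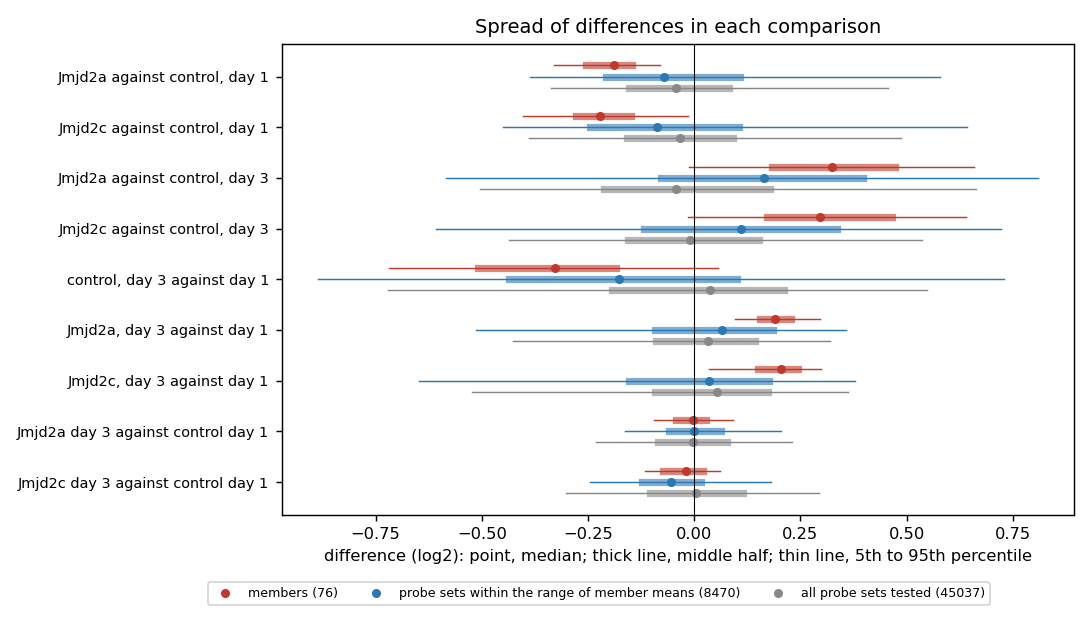
Log2 differences of the 76 members in each comparison as the median (point), the middle of the distribution between its quartiles (thick line) and the 5th to 95th percentile (thin line), beside the probe sets within the members' range of means and all probe sets tested. Members lie below 0 at day 1 with both labels (-0.19 and -0.22) and in the controls over time (-0.33), and above 0 at day 3 with both labels (0.32 and 0.29).

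The day 3 label arrays were also set against the day 1 controls, a comparison across days. With Jmjd2a the median was -0.0 and single members ran from -0.17 to 0.12, and with Jmjd2c the median was -0.02 and the range -0.15 to 0.1. In limma 0 members passed, 3 and 1 had an unadjusted p under 0.05, and 0.167% and 0.16% of all probe sets passed in either direction. Fitted on the compared arrays alone, 2 members passed with each label. Mrps28 differed by -0.15 (95% interval -0.28 to -0.01, adjusted p = 0.93) and -0.14 (adjusted p = 0.52, limma). Mrpl38 differed by -0.05 (95% interval -0.23 to 0.13) and -0.07.

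Jmjd2a and Jmjd2c label arrays were compared with each other on each day. At day 1 the differences ran from -0.12 to 0.12, 0 members passed in limma and 1 had an unadjusted p under 0.05, and at day 3 they ran from -0.1 to 0.12, with 0 passing and 0 at an unadjusted p under 0.05. Of all probe sets 0% passed on either day. For Mrpl38 the difference was 0.06 (95% interval -0.12 to 0.24) at day 1 and 0.03 (-0.15 to 0.21) at day 3, and for Mrps28 0.08 (-0.05 to 0.21) and 0.0 (-0.13 to 0.13). This does not show that the labels act alike.

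The 80 further probe sets of 42 members gave a second reading, though 18 of them lay below the median of all probe sets. In the controls over time 38 fell and 0 rose, with a median of -0.32. At day 3, 36 and 24 were higher with Jmjd2a and Jmjd2c (medians 0.26 and 0.23), and at day 1, 11 and 23 were lower (medians -0.22 and -0.26). No further probe set passed against a call of its gene's brightest probe set in these comparisons. For Mrpl52, 3 further probe sets changed by -1.02, -0.96 and -0.67 in the controls (adjusted p = 2e-06, 7e-06 and 0.0038, limma).

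Other genes of mitochondrial gene expression were taken from lists, each given by its counts in the controls over time and in the day 3 comparisons. These counts are read against the probe sets of the members' range, of which 39.4% were lower in the controls over time and 36.1% and 28.3% higher at day 3 with Jmjd2a and Jmjd2c. The lists also hold genes outside that range, so this background is only a rough guide for them. The mean of the tRNA synthetases was 7.37 to 7.78 over the arrays, below the lowest member mean of 7.85. Of 4 measured mitoribosomal proteins with other names 3 fell, with a median of -0.29, led by Gadd45gip1, a large-subunit protein (-0.68, adjusted p = 1.2e-05, limma). Of 13 measured translation factors 7 fell (53.8%, median -0.32). Among them were the elongation factors Tsfm (-0.58, adjusted p = 0.00023) and Tufm (-0.42, adjusted p = 0.0013, limma), of which Tufm brings the tRNA. At day 3, 7 of the 13 were higher with Jmjd2a and 4 with Jmjd2c, the latter share (30.8%) near the background. Gfm1, the factor that moves the ribosome along, was lower at day 1 with both labels (-0.37 and -0.41, adjusted p = 0.0075 and 0.0029, limma).

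Of 24 assembly factors of the mitochondrial ribosome 11 fell and 1 rose in the controls (median -0.31), and the share that fell (45.8%) was near the background. Gtpbp10, a GTPase of large-subunit assembly, changed by -1.01 (adjusted p = 0.00021), Mrm3, a methyltransferase of the large ribosomal RNA, by -0.74 (adjusted p = 8.3e-05) and Fastkd2, an RNA-binding assembly factor, by -0.69 (adjusted p = 4.8e-05, limma). At day 3, 12 were higher and 1 lower with Jmjd2a, and 10 higher and 1 lower with Jmjd2c. Of 19 measured mitochondrial tRNA synthetases 10 fell (52.6%, median -0.3), and 9 and 7 were higher at day 3, with 1 lower with Jmjd2c. Of 15 genes for mitochondrial DNA and RNA 9 fell (60.0%, median -0.5), and 9 and 7 were higher at day 3. Top1mt, the mitochondrial topoisomerase, changed by -1.12 in the controls (adjusted p = 4.5e-06) and Ssbp1, the DNA-binding protein of the mitochondrial genome, by -0.44 (adjusted p = 8.5e-05, limma).

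Of 23 measured genes for protein import 18 fell in the controls (78.3%, median -0.36), 16 and 15 were higher at day 3 with Jmjd2a and Jmjd2c (medians 0.36 and 0.33), and 9 and 16 were lower at day 1 (medians -0.2 and -0.23). Timm10 is a chaperone between the mitochondrial membranes. Its signal was 10.91 and 10.96 in the day 1 controls and 9.85 and 9.77 in the day 3 controls. It read 10.67 to 10.81 on the day 1 label arrays and 10.85 to 10.96 on the day 3 label arrays. The day 3 controls were lowest, at -1.13 against the day 1 controls (adjusted p = 2.8e-07, limma). The day 1 label arrays lay between these and the other groups. Of 46 measured proteins of the cytosolic ribosome 3 rose and 4 fell in the controls, with a median of 0.0. Their median level was 13.8 to 13.86 on every array, above the highest member mean of 11.86. Whether the arrays show changes as fully at such levels was not tested. At day 3, 6 and 5 of these 46 genes were higher and 1 lower with each label. At day 1, 1 and 3 were higher and 2 lower. Of all probe sets 13.7% and 9.28% were higher at day 3 with Jmjd2a and Jmjd2c. At day 1, 4.23% and 5.32% of all probe sets were higher and 3.25% and 5.69% lower.

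Of 9 regulators of genes for mitochondria, 4 fell and 1 rose in the controls. Myc, a factor that drives growth genes, read 10.36 and 10.3 in the day 1 controls and 9.15 and 8.97 in the day 3 controls, at day 1 10.68 and 10.51 with Jmjd2a and 10.57 and 10.88 with Jmjd2c, and at day 3 10.33 and 10.34 with Jmjd2a and 10.12 and 10.15 with Jmjd2c. Myc was lowest in the day 3 controls, like most members, but highest in the day 1 label arrays, unlike them. It fell by 1.27 in the controls (adjusted p = 2.6e-06), was 1.28 and 1.08 higher at day 3 (adjusted p = 5.5e-06 and 2e-05), and at day 1 differed by 0.27 (adjusted p = 0.14) and 0.4 (adjusted p = 0.021, limma). Pprc1, a coactivator of the PGC1 family, fell by 0.84 (adjusted p = 7.1e-06). Ppargc1a, its relative, rose by 1.51 (adjusted p = 0.0011, limma), at dim levels of 3.42 to 5.28 over the arrays. Nrf1, whose element is shown above, changed by -0.25 (adjusted p = 0.12) and Gabpa, which binds the ETS element, by -0.13 (adjusted p = 0.31, limma). Gabpb1, the other GABP gene listed, read 7.77 and 7.67 in the day 1 controls, then 7.38 and 7.29 at day 3. At day 1 Gabpb1 differed by -0.28 with Jmjd2a (adjusted p = 0.12, limma) and did not pass. With Jmjd2c it was lower, at -0.33 (adjusted p just under the threshold, 0.05 when rounded, limma).

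Marker genes of other spleen cells moved with the same groups. The mean of 18 macrophage markers was 5.01 to 5.02 in the day 1 controls, 7.38 to 7.83 and 7.26 to 8.34 in the day 1 Jmjd2a and Jmjd2c arrays, 6.46 to 6.57 in the day 3 controls and 5.55 to 5.67 in the day 3 label arrays. The groups with more macrophage signal than the day 1 controls by over a unit were the 3 groups in which the members were low, although the members were lowest in the day 3 controls and the macrophage markers highest in the day 1 label arrays. Of the 18 markers 15 and 16 were higher at day 1, 13 rose in the controls over time, and 11 and 9 were lower at day 3 with Jmjd2a and Jmjd2c. Of all probe sets 4.23% and 5.32% were higher at day 1 with Jmjd2a and Jmjd2c, and 8.46% rose in the controls. At day 3, 7.11% and 5.04% of all probe sets were lower. The mean of 8 measured NK cell markers was 5.05 to 5.26 in the day 1 controls, 6.25 to 6.78 in the day 1 label arrays, 7.47 to 7.57 in the day 3 controls and 5.99 to 6.22 in the day 3 label arrays. This mean was thus highest in the day 3 controls, where the members were lowest, but single markers differed. Gzma, Gzmb, Prf1, Nkg7 and Klrk1 were highest in the day 3 controls. Ncr1, Klrd1 and Klra8 had higher means in the day 1 arrays of both labels. Klra8, for example, read 5.49 to 5.95 there and 5.23 and 5.03 in the day 3 controls.

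Of 11 measured T cell markers 4 were higher at day 1 with each label and 7 rose in the controls, with array means between 5.66 and 6.21. Of 6 measured erythroid markers 2 and 3 were higher at day 1 and 0 changed in the controls, and 1 of 9 measured neutrophil markers rose in the controls. At day 1 the difference of all 9 neutrophil markers was positive with both labels (medians 0.97 and 1.36) and 4 had an unadjusted p under 0.05 with each, but 0 passed in limma. Their mean was 4.35 to 4.45 in the day 1 controls, 5.01 and 6.65 on the first and second Jmjd2a arrays, and 5.04 and 7.15 on the first and second Jmjd2c arrays, so replicates differed widely. Among the B cell markers 6 of 7 were higher at day 1 with each label (medians 0.64 and 0.79) and 3 rose in the controls. The part of these cells in the members' differences was not tested.

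The members with an NRF1 element in the promoter were set beside those without one, as a description. Of the 12 with it 4 fell in the controls, 7 did not pass and 1 rose, with a median of -0.09 and a range of -0.53 to 0.34. Of the 55 without it 44 fell and 11 did not pass, with a median of -0.35. The 4 that fell were Mrpl12, Mrpl14, Mrpl17 and Mrps26, and the 8 others were Mrpl32, Mrpl39, Mrpl44, Mrpl45, Mrpl57, Mrpl9, Mrps21 and Mrps9. At day 3 the medians with and without it were 0.12 and 0.33 for Jmjd2a and 0.11 and 0.3 for Jmjd2c, with the same controls. At day 1 they were closer, at -0.17 and -0.2 for Jmjd2a and -0.17 and -0.23 for Jmjd2c.

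The members printed above show both courses. Mrpl9 read 9.79 and 9.84 in the day 1 controls and 9.92 and 9.64 in the day 3 controls, so its pairs overlapped, and Mrps21 read 10.27 and 10.3, then 10.24 and 10.3. Mrpl17, with the same element, read 10.94 and 10.98, then 10.36 and 10.5, and separated. The ETS element gave no such split: 17 of 25 members with it and 31 of 42 without it fell, both with a median of -0.32. All 5 members with an E-box and 43 of 62 without it fell, both with a median of -0.32. With the YY1 element 4 of 5 fell (median -0.53), and without it 44 of 62 (median -0.32).

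**Figure D5:**
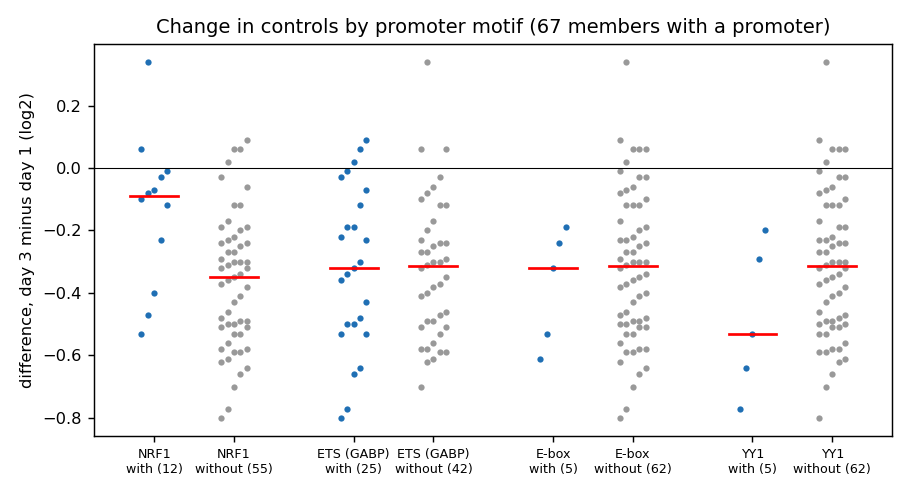
Difference in log2 signal between day 3 and day 1 in the controls for members with and without each of the 4 promoter elements, 1 point per member, with the median of each set. The medians differ for the NRF1 element (-0.09 with, -0.35 without) and are alike for the ETS element (-0.32 in both).

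Many of these genes start back to back with a neighbour, within 500 bases and on the opposite strand. For 20 members the neighbour was measured and was not itself a member, and 15 of these members fell in the controls. Of their 15 neighbours 4 fell, 1 rose and 10 did not pass, where 15.4% of all probe sets fell. That share includes dim probe sets, while each neighbour was read by the brightest probe set of its gene. The share that fell was larger among probe sets of the members' range, as given above, so no excess is read from these counts. Beside members that did not fall, 2 neighbours fell. These were Psma2 beside Mrpl32 (-0.163, adjusted p = 0.006) and Twnk beside Mrpl43 (-0.519, adjusted p = 0.0015, limma). Mrpl50 fell while its neighbour Zfp189, which starts 93 bases away, changed by 0.04 (adjusted p = 0.83, limma). Mrps27 and its neighbour Ptcd2 both fell, by 0.77 and 0.29 (adjusted p = 0.00045 and 0.019, limma). Mrpl46 and Mrps11 share such a start and are both members: Mrpl46 changed by -0.51 (adjusted p = 0.00017) and Mrps11 by -0.2 (adjusted p = 0.078, limma).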

How the data were processed

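The authors deposited log2 values for 12 arrays, per the series' value table, whose median was 5.2 to 5.25 on every array. Their normalization, not given in the sources used here, was kept. The number of arrays limits the precision. Genes were named from the platform annotation, and 0 member symbols differed from RefSeq's. Of 45101 probe sets, 64 controls were left out and 45037 tested. All 12 arrays went into 1 limma fit (version 3.58.1, R 4.3.3) with 6 group means, variances moderated by eBayes and a prior that follows intensity, leaving 6 residual and 5.85 prior degrees of freedom. Within each of 13 comparisons the Benjamini-Hochberg adjustment covered all probe sets tested, with a threshold of 0.05. Intervals are 95% intervals of that model. The model was tested on simulated data.

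The members, lists and markers were chosen with earlier results of these data known. Named members were the brightest and dimmest of each subunit, the 5 largest rises and falls past the test with groups that did not overlap in each comparison with control and in the controls over time, members past the test against the median, and Mrpl12, the S18 relatives, Mrps30 and Mrps36. From each list up to 3 genes of smallest p were open to naming. Other genes were named after their values were seen. Replicate numbers were checked for pairing. Deviations correlated at 0.035 and 0.092 between the day 1 controls and the day 1 label arrays, and at 0.392 between the labels at day 1. Within day 3 they correlated at -0.072, -0.073 and 0.051. The day 1 labels are the groups whose second arrays stood apart in neutrophil genes. No pairing was used, since the titles name none, and a link between those arrays was not tested. Promoters came from RefSeq (GRCm38.p6). Alternatives were 10 other settings and leaving out each of the 12 arrays.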

Additional observations from a re-analysis of the deposited data

Results flagged for a closer look

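The difference between label and control changed from day 1 to day 3 by its own test (limma, Benjamini-Hochberg adjusted p under 0.05). This held for 60 members with Jmjd2a and for 58 with Jmjd2c, all in the direction of a more positive difference at day 3. The tests of both labels share their control arrays.

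Among the named members the change in log2 difference with the Jmjd2a label was 1.21 for Mrps28, 1.2 for Mrpl38, 1.12 for Mrps27, 0.92 for Mrpl50, 0.89 for Mrpl52 and 0.87 for Mrpl55 and Mrps18b. It was 0.85 for Mrps18a, 0.84 for Mrps6, 0.81 for Mrps31, 0.69 for Mrps25, 0.67 for Mrps24, 0.66 for Mrpl1 and 0.58 for Mrpl12. The smallest changes past the test were 0.44 for Mrps30, 0.37 for Mrps18c, 0.33 for Mrps36 and 0.31 for Mrps14.

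With the Jmjd2c label it was 1.29 for Mrps28, 1.23 for Mrpl38, 0.99 for Mrps27, 0.98 for Mrpl50, 0.93 for Mrpl52 and 0.9 for Mrps31. It was 0.87 for Mrps6, 0.85 for Mrpl55, 0.84 for Mrps18a and Mrps18b, 0.67 for Mrps25, 0.66 for Mrpl1, 0.62 for Mrpl12 and 0.61 for Mrps24. Mrps30 gave 0.43, Mrps36 0.42 and Mrps18c 0.37.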

How the results depend on the processing

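Leaving out 1 array at a time, the number of members past the test ranged from 0 to 47 for Jmjd2a at day 1 (19 with all arrays), 2 to 55 for Jmjd2c at day 1 (34), 40 to 59 for Jmjd2a at day 3 (57), 35 to 53 for Jmjd2c at day 3 (53) and 42 to 58 for the controls over time (56). It ranged from 0 to 43 for Jmjd2a over time (8), 0 to 49 for Jmjd2c over time (22), 52 to 67 and 50 to 64 for the change in difference (60 and 58), and stayed at 0 for Jmjd2a against Jmjd2c on either day and for each label's day 3 against the day 1 controls.

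For Jmjd2a at day 1 the count was 35 among probe sets above the median mean, 1 without the intensity trend, 47 with array weights, 29 with 1 probe set per gene and 36 at an adjusted p under 0.1. For Jmjd2c at day 1 it was 12 without the trend and 55 with array weights. On the compared arrays alone it was 30 and 24 at day 3 for Jmjd2a and Jmjd2c, and 2 for each label's day 3 against the day 1 controls. For Jmjd2a over time it was 25 above the median, 0 without the trend, 43 with weights, 18 with 1 probe set per gene, 5 with the second brightest probe set and 25 at 0.1. For Jmjd2c over time it was 12 with arrays centred, 42 above the median, 0 without the trend, 49 with weights, 39 on the compared arrays, 36 with 1 probe set per gene and 44 at 0.1. The causes were not tested. In the controls over time these settings gave 38 to 58.

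With the replicate number as a block the counts were 19 and 34 at day 1, 57 and 53 at day 3, 56 for the controls, 10 and 21 for the labels over time, 0 and 0 between labels, 60 and 58 for the change in difference and 0 and 0 against the day 1 controls. The numbers mark no stated pairing, so these counts say nothing on effect size. Of the values for single named members, 1892 kept direction and call, 200 lost the call, 108 gained it and 0 reversed.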
